A study of Homo sapiens with 9 samples.

Results

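10 genes of the CCN family and of the YAP/TEAD branch of Hippo signalling were described from RNA sequencing of MDA-MB-231, a human cell line of triple-negative breast cancer. They were 10 of the 27548 rows of the deposited expression table, chosen by symbol, and each symbol was on 1 row: CCN1, CCN2, CCN5, ANKRD1, AMOTL1, AMOTL2, LATS2, YAP1, WWTR1 and TEAD1. CCN5 was picked for its rise after the siRNA, so its values are given as a description with no test. The 9 other genes were tested. All 10 genes, and the gene lists used below, were chosen with earlier results of these data known. There were 3 groups of 3 libraries. In TLX+siTLX (libraries S7 to S9), cells made to overexpress the nuclear receptor TLX, the product of NR2E1, received a TLX-targeting siRNA. In TLX+siCTL (S4 to S6) the same overexpressing cells received a negative control siRNA, and in CTL+siCTL (S1 to S3) control cells received that control siRNA. All cells were transfected for 48 h with DharmaFECT 4. The vector and promoter behind the overexpression, whether the line is 1 clone, and the siRNA sequences are not stated in the labels. The titles of the control samples carry the word PC3, unexplained in the labels. Any difference of the control cells other than TLX cannot be told apart from TLX. None of the 3 groups held control cells given the TLX-targeting siRNA. An effect of that siRNA other than on TLX therefore cannot be told apart from the lowering of TLX. The labels do not state that libraries of a group came from separate cultures, so the p-values measure the spread between libraries, which may be technical.

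CCN proteins are secreted, cysteine-rich proteins of the extracellular matrix that bind integrins, heparan sulphate proteoglycans and growth factors. CCN5 differs from the other family members in lacking the C-terminal cystine-knot module. In the Hippo pathway, a kinase cascade that ends in LATS1 and LATS2 phosphorylates the coactivators YAP (YAP1) and TAZ (WWTR1) and keeps them out of the nucleus. Unphosphorylated YAP and TAZ bind TEAD transcription factors and switch on target genes, among which CCN1, CCN2 and ANKRD1 are the usual readouts in breast cancer cells and AMOTL2 and LATS2 act as negative feedback.

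Effective library sizes, estimated from the steps between low values, were 73.8 to 91.8 M reads. Over expressed rows, here those whose log2 CPM (reads scaled to library size) averages at least 1, S9 differed from S7 and S8 by a root mean square of 0.251 and 0.217 log2 units, while S7 and S8 differed by 0.197 and libraries within the other groups by 0.173 to 0.202. NR2E1 was at -2.61, -3.40 and -1.77 log2 CPM in TLX+siTLX, at 0.28, -0.84 and 0.23 in TLX+siCTL, and at -4.59, -4.28 and -4.50 in CTL+siCTL, so the labels held in each library and S9 had the most NR2E1 of its group. The 10 prostate line markers summed to 50.9 to 55.1 CPM in TLX+siTLX, 49.3 to 51.5 in TLX+siCTL and 48.7 to 50.9 in CTL+siCTL. KLK3, KLK2, FOLH1 and HOXB13 were near the floor of the table. Of the 10, 5 were measured and 3 expressed, and at most 2 of the 5 were called in a comparison. The 10 basal mesenchymal markers summed to 5155 to 5549 CPM in TLX+siTLX, 3749 to 3784 in TLX+siCTL and 3661 to 3764 in CTL+siCTL, with SPARC near the floor. Of the 9 measured ones, 4 rose and 3 fell in TLX+siCTL against CTL+siCTL. In TLX+siTLX 8 rose and 0 fell against TLX+siCTL, and 7 rose and 1 fell against CTL+siCTL. The 10 luminal markers summed to 954 to 1055 CPM in TLX+siTLX, 782 to 826 in TLX+siCTL and 1381 to 1414 in CTL+siCTL. In CTL+siCTL the most abundant were KRT8, AGR2, XBP1 and KRT18, at means of 414, 352, 314 and 271 CPM. ESR1 and FOXA1 were low. Of the 9 measured luminal markers, 6 were expressed. In TLX+siCTL against CTL+siCTL 1 of the 9 rose, GATA3 at 0.93 ± 0.13. The 7 that fell included SPDEF at -2.27 ± 0.13 and AGR2 at -2.14 ± 0.13. They also included PGR and TFF1, which were not among the expressed rows. In TLX+siTLX 2 rose and 0 fell against TLX+siCTL, and 2 rose and 4 fell against CTL+siCTL. Of the expressed rows 29.3% rose and 27.4% fell in TLX+siCTL against CTL+siCTL (limma, adjusted p under 0.05). In TLX+siTLX 23.8% of them rose and 22.0% fell against TLX+siCTL, and 32.4% and 31.2% against CTL+siCTL. The part of the marker shifts in the results below was not tested. In bulk RNA, a change in the number of cells of a kind and a change in RNA per cell cannot be told apart.

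In TLX+siCTL against CTL+siCTL, CCN1, CCN2, AMOTL1, AMOTL2 and TEAD1 rose and WWTR1 fell, by limma with an adjusted p under 0.05. These were 6 of the 9 tested genes, 5 up and 1 down. All 10 genes belong to the 12564 expressed rows, CCN5 only through its level in TLX+siTLX. Of these rows 56.6% were called, 29.3% up and 27.4% down, and of all 27548 rows 30.1% were called. After the siRNA, in TLX+siTLX against TLX+siCTL, CCN1, CCN2, AMOTL2 and YAP1 rose and LATS2 and TEAD1 fell, again 6 of 9, against 45.8% of the expressed rows (23.8% up and 22.0% down) and 23.7% of all rows. Between TLX+siTLX and CTL+siCTL, CCN1, CCN2, AMOTL1 and AMOTL2 rose and LATS2, WWTR1 and TEAD1 fell, 7 of 9, against 63.6% of the expressed rows (32.4% up and 31.2% down) and 34.6% of all rows. Groups that did not overlap, named below gene by gene, were common too: they were found in 71.6%, 58.3% and 71.1% of the expressed rows in these comparisons. The counts of called genes are thus not far above the background of expressed rows, so a call alone does not set these genes apart. The median log2 fold change of the 9 genes was 0.49, 0.04 and 0.06 in these comparisons, beside 0.01, 0.00 and 0.00 over the expressed rows. The comparisons share libraries and are not independent of each other.

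**Figure D1:**
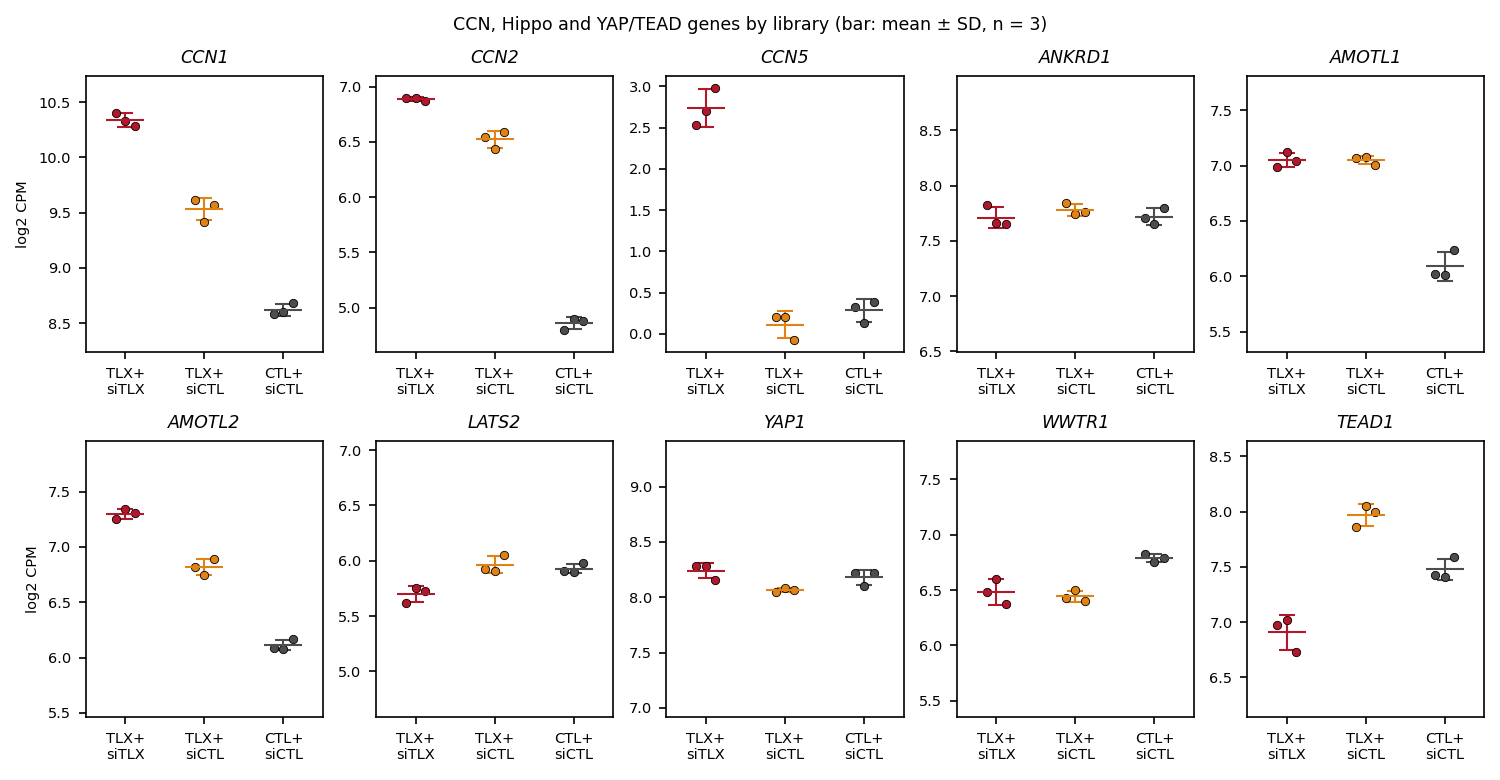
Log2 CPM (y axis) of the 10 genes in each library, by group (x axis). Points are libraries and bars are the mean ± SD (n = 3). CCN1, CCN2 and AMOTL2 are highest in TLX+siTLX and lowest in CTL+siCTL, CCN5 is high in TLX+siTLX, at 2.53 to 2.98, and TEAD1 is lowest in TLX+siTLX, at 6.73 to 7.02.

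CCN1 (CYR61, ENSG00000142871, GRCh38 chromosome 1, 85580761 to 85583962) encodes a secreted ligand of integrins and a direct YAP/TEAD target. Its level was 10.40, 10.33 and 10.28 log2 CPM in TLX+siTLX, 9.61, 9.42 and 9.57 in TLX+siCTL, and 8.58, 8.60 and 8.68 in CTL+siCTL. The 3 groups did not overlap, and libraries within a group were close together. CCN1 rose by 0.91 ± 0.06 (SE) in log2 fold change in TLX+siCTL against CTL+siCTL (limma adjusted p = 8.45e-06), which was rank 429 from the highest among the 12564 expressed rows. It rose again by 0.80 ± 0.06 in TLX+siTLX against TLX+siCTL (limma adjusted p = 3.70e-05). Against CTL+siCTL, TLX+siTLX was 3.29-fold higher (log2 1.72 ± 0.06, limma adjusted p = 2.05e-07).

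CCN2 (CTGF, ENSG00000118523, chromosome 6, 131948176 to 131951373) encodes connective tissue growth factor, a secreted relative of CCN1 and likewise a TEAD target. Its level was 6.90, 6.90 and 6.87 log2 CPM in TLX+siTLX, 6.54, 6.44 and 6.59 in TLX+siCTL, and 4.80, 4.90 and 4.88 in CTL+siCTL. Most of the difference lay between control and overexpressing cells, and the 3 groups did not overlap. In TLX+siCTL CCN2 reached 3.17-fold the CTL+siCTL level (log2 1.67 ± 0.05, limma adjusted p = 2.78e-07), which was the 60th largest rise among 12564 expressed rows. Against TLX+siCTL, TLX+siTLX was 1.29-fold higher (log2 0.37 ± 0.05, limma adjusted p = 0.000564), and against CTL+siCTL 4.09-fold higher (log2 2.03 ± 0.05, limma adjusted p = 3.11e-08). The ratio of CCN1 to CCN2 within a library, which does not depend on the scaling between libraries, was 3.41 to 3.50 log2 units in TLX+siTLX, 2.98 to 3.07 in TLX+siCTL and 3.71 to 3.80 in CTL+siCTL. The balance between these ligands therefore moved towards CCN2 in TLX+siCTL and part of the way back in TLX+siTLX.

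CCN5 (WISP2, ENSG00000064205, chromosome 20, 44714844 to 44728509) encodes the family member without the C-terminal module, known in breast cells as an oestrogen-induced gene that restrains growth and invasion. Its level was 2.53, 2.70 and 2.98 log2 CPM in TLX+siTLX, 0.21, 0.20 and -0.07 in TLX+siCTL, and 0.33, 0.13 and 0.39 in CTL+siCTL. The TLX+siTLX libraries stood apart and the other groups overlapped. These values rest on an estimated 468, 498 and 682 reads in TLX+siTLX, 104, 88.5 and 73.6 reads in TLX+siCTL, and 99.4, 81.7 and 95.2 reads in CTL+siCTL. CCN5 stood 2.62 ± 0.16 log2 units higher in TLX+siTLX than in TLX+siCTL (6.16-fold). CCN5 was picked for this rise, so the size and SE are a description and no test. It counts as expressed only through TLX+siTLX, where its mean was 2.74 log2 CPM, beside 0.12 in TLX+siCTL and 0.29 in CTL+siCTL. CCN5 was 2.45 ± 0.16 higher in TLX+siTLX than in CTL+siCTL, and its log2 fold change in TLX+siCTL against CTL+siCTL was -0.17 ± 0.16. S9 had the highest CCN5 and the highest NR2E1 of its group; without S9 the CCN5 difference from TLX+siCTL was 2.50. On the log2(CPM + 1) scale it was 1.88. The authors' deposited table has CCN5 at 6.26 in TLX+siTLX against TLX+siCTL, 5.56 in TLX+siTLX against CTL+siCTL and -1.13 in TLX+siCTL against CTL+siCTL, a fall being written as minus the inverse ratio.

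Of the other CCN genes, CCN3 (NOV), a family member often linked to growth restraint, was measurable and CCN4 and CCN6 were at or near the floor. CCN3 was at 5.07, 5.19 and 5.15 log2 CPM in TLX+siTLX, 4.04, 4.12 and 4.02 in TLX+siCTL, and 4.16, 4.19 and 4.34 in CTL+siCTL. Like CCN5, it was higher in TLX+siTLX with no overlap. It rose by 1.08 ± 0.06 against TLX+siCTL (limma adjusted p = 9.22e-06) and by 0.91 ± 0.06 against CTL+siCTL (limma adjusted p = 4.95e-06), and its log2 fold change in TLX+siCTL against CTL+siCTL was -0.17 ± 0.06 (limma adjusted p = 0.063), a fall that was called with only expressed rows tested. CCN4 ranged over the 9 libraries between -5.33, the value of 0 reads, and -3.53, and CCN6 between -5.33 and -3.83.

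Levels of different genes were compared as CPM per kb of merged exon in GENCODE 29, an approximate scale because the transcripts in use are not known. CCN1 made up nearly all of the CCN message on that scale. It was at 565 ± 24.5 CPM per kb in TLX+siTLX, 324 ± 23.1 in TLX+siCTL and 172 ± 6.12 in CTL+siCTL (SD, n = 3). CCN2 was at 50.7 ± 0.574 in TLX+siTLX, 39.4 ± 2.09 in TLX+siCTL and 12.4 ± 0.448 in CTL+siCTL. For CCN3 the level was 14.0 ± 0.587 in TLX+siTLX, 6.60 ± 0.254 in TLX+siCTL and 7.44 ± 0.499 in CTL+siCTL. CCN1 and CCN2 thus stepped up in both TLX groups, and CCN3 in TLX+siTLX. CCN5 was at 3.70 ± 0.585 in TLX+siTLX, 0.586 ± 0.0645 in TLX+siCTL and 0.661 ± 0.0619 in CTL+siCTL. The order of the 4 levels was the same within each of the 9 libraries. CCN1 held 89.2% ± 0.498 of the summed level of the 6 CCN genes in TLX+siTLX, 87.4% ± 0.479 in TLX+siCTL and 89.3% ± 0.138 in CTL+siCTL. The CCN2 share was 8.01% ± 0.237 in TLX+siTLX, 10.6% ± 0.346 in TLX+siCTL and 6.45% ± 0.215 in CTL+siCTL. CCN5 held 0.586% ± 0.114 in TLX+siTLX, 0.159% ± 0.0234 in TLX+siCTL and 0.343% ± 0.0284 in CTL+siCTL. Even after its rise CCN5 was thus a small part of the CCN message, and the sum over the 6 genes was 634 ± 23.9 CPM per kb in TLX+siTLX, 371 ± 24.6 in TLX+siCTL and 192 ± 6.89 in CTL+siCTL.

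**Figure D2:**
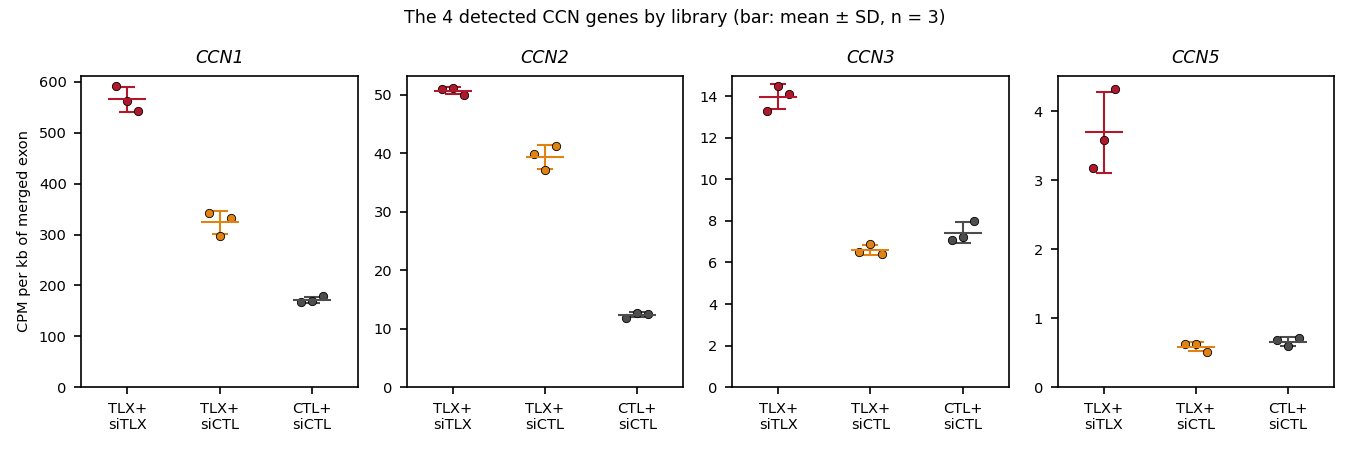
CPM per kb of merged exon (y axis, from 0, a separate scale for each gene) of CCN1, CCN2, CCN3 and CCN5 in each library, by group (x axis). Points are libraries and bars are the mean ± SD (n = 3). CCN1 and CCN2 step up in both TLX groups, while CCN3 and CCN5 are high in TLX+siTLX.

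ANKRD1 (ENSG00000148677, chromosome 10, 90912096 to 90921276), an ankyrin repeat protein and standard YAP/TEAD readout, was at 7.82, 7.66 and 7.65 log2 CPM in TLX+siTLX, 7.84, 7.74 and 7.76 in TLX+siCTL, and 7.71, 7.65 and 7.80 in CTL+siCTL. All 3 groups overlapped. Its log2 fold change was 0.06 (95% interval -0.07 to 0.19) in TLX+siCTL against CTL+siCTL, -0.07 (-0.20 to 0.06) in TLX+siTLX against TLX+siCTL and -0.01 (-0.14 to 0.12) in TLX+siTLX against CTL+siCTL, with limma adjusted p = 0.498, 0.486 and 0.960. These intervals hold no change of the size seen in CCN1 or CCN2. With library medians set equal, ANKRD1 fell by 0.21 in TLX+siTLX against TLX+siCTL (limma adjusted p = 0.0283). The log2 ratio of CCN2 to ANKRD1 within a library was -0.92 to -0.76 in TLX+siTLX, -1.30 to -1.17 in TLX+siCTL and -2.92 to -2.75 in CTL+siCTL.

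AMOTL2 (ENSG00000114019, chromosome 3, 134355874 to 134375479), an angiomotin-family scaffold that binds YAP and is itself a target, was at 7.25, 7.34 and 7.31 log2 CPM in TLX+siTLX, 6.82, 6.75 and 6.89 in TLX+siCTL, and 6.09, 6.08 and 6.17 in CTL+siCTL. It followed the pattern of CCN1, with 3 separate groups. AMOTL2 rose by 0.70 ± 0.05 in TLX+siCTL against CTL+siCTL (limma adjusted p = 9.24e-06) and by 0.48 ± 0.05 in TLX+siTLX against TLX+siCTL (limma adjusted p = 0.000144). TLX+siTLX was 2.27-fold above CTL+siCTL (log2 1.19 ± 0.05, limma adjusted p = 3.72e-07).

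Its paralog AMOTL1 (ENSG00000166025, chromosome 11, 94706431 to 94876753), likewise a YAP-binding scaffold, was at 6.99, 7.12 and 7.04 log2 CPM in TLX+siTLX, 7.07, 7.08 and 7.01 in TLX+siCTL, and 6.02, 6.01 and 6.24 in CTL+siCTL. The TLX groups overlapped and lay above the control cells. AMOTL1 rose by 0.96 ± 0.07 in TLX+siCTL against CTL+siCTL (limma adjusted p = 9.88e-06) and by the same 0.96 ± 0.07 in TLX+siTLX against CTL+siCTL (limma adjusted p = 6.29e-06). Between TLX+siTLX and TLX+siCTL its log2 fold change was 0.00 (95% interval -0.15 to 0.15, limma adjusted p = 1.00). The log2 ratio of AMOTL2 to AMOTL1 within a library was 0.22 to 0.27 in TLX+siTLX, -0.33 to -0.12 in TLX+siCTL and -0.07 to 0.07 in CTL+siCTL. AMOT, the founding angiomotin, was at the floor in 7 of 9 libraries and never above -4.52 log2 CPM.

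LATS2 (ENSG00000150457, chromosome 13, 20973032 to 21061547), the kinase that phosphorylates YAP and TAZ and is also a feedback target, was at 5.62, 5.75 and 5.73 log2 CPM in TLX+siTLX, 5.93, 5.91 and 6.05 in TLX+siCTL, and 5.91, 5.90 and 5.98 in CTL+siCTL. It was low in TLX+siTLX, and the other groups overlapped. LATS2 fell by 0.26 ± 0.05 in TLX+siTLX against TLX+siCTL (limma adjusted p = 0.00639) and by 0.23 ± 0.05 against CTL+siCTL (limma adjusted p = 0.00713). Its log2 fold change in TLX+siCTL against CTL+siCTL was 0.03 (95% interval -0.09 to 0.15, limma adjusted p = 0.754).

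Promoter sequence was looked up to show what CCN2, ANKRD1 and AMOTL2 carry near their starts. CCN2 and AMOTL2 had risen in TLX+siCTL against CTL+siCTL and in TLX+siTLX against TLX+siCTL, and ANKRD1 was called in neither comparison. RefSeq windows on GRCh38.p14, 250 bases before and 50 after a start site, were found for 7 of the 10 genes. CCN1, CCN5 and TEAD1 were not matched. The core TEAD motif GGAATG was searched on both strands. CCN2 held 3 copies, starting at -169, -104 and -95 from the start site, ANKRD1 held 2 at -220 and -128, and AMOTL2 held 1 on the reverse strand at -69 in the window of its downstream start site and 0 in that of the upstream one. YAP1 held 1 at -162 and LATS2 1 at position 10 after the start. AMOTL1 and WWTR1, in 1 and 2 windows, held none. Of 35116 promoter windows 14.0% held at least 1 copy, 1.37% at least 2 and 0.128% at least 3. The AP-1 motif TGANTCA was found once, in ANKRD1 (7.71% of all windows hold it), and the NR2E1 half-site AAGTCA in none of the 9 windows (12.5% of all windows hold it). No TEAD motif overlapped another of these motifs. A match is a description and says nothing of binding. The 250 bases before the start sites are shown 5′ to 3′ on the strand of the gene, which is the minus strand for all 3, with GGAATG or its reverse complement in capitals. They are chr6:131951373-131951622 for CCN2, chr10:90921088-90921337 for ANKRD1 and chr3:134374448-134374697 for AMOTL2.
CCN2: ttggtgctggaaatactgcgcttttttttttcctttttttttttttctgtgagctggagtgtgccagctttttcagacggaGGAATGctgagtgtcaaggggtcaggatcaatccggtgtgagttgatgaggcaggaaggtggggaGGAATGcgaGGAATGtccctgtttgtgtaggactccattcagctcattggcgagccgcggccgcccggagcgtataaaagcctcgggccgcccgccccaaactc
ANKRD1: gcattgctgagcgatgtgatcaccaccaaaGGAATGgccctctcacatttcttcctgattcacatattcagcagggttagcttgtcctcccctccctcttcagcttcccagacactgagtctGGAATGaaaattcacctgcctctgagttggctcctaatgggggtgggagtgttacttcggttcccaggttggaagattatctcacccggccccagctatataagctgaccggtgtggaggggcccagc
AMOTL2: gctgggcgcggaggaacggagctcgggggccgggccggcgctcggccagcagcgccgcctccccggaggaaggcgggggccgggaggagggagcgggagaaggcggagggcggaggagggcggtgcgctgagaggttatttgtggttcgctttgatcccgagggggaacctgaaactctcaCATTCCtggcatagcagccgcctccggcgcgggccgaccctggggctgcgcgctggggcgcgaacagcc

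Among expressed genes with such a window, the 10 genes left out, the 118 with at least 2 copies of GGAATG had a median log2 fold change of 0.10 in TLX+siCTL against CTL+siCTL, 0.06 in TLX+siTLX against TLX+siCTL and 0.13 in TLX+siTLX against CTL+siCTL. The 7964 genes with none had medians of 0.00, -0.01 and 0.00. Of the 118 genes 35.6%, 32.2% and 44.1% rose and 22.0%, 19.5% and 24.6% fell. Of the 7964 genes 29.3%, 24.0% and 32.4% rose and 27.9%, 23.3% and 32.6% fell. The 1268 genes with 1 copy were close to those with none, with a median of 0.01 in each comparison. Of these 32.0%, 24.3% and 33.8% rose and 28.4%, 22.1% and 31.7% fell. No test was run on these shifts, which are small beside those of CCN2.

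The coactivators changed little. YAP1 (ENSG00000137693, chromosome 11, 102110461 to 102233423) was at 8.28, 8.28 and 8.16 log2 CPM in TLX+siTLX, 8.05, 8.08 and 8.07 in TLX+siCTL, and 8.22, 8.10 and 8.22 in CTL+siCTL. TLX+siTLX and CTL+siCTL overlapped, and TLX+siCTL lay just under both. YAP1 rose by 0.17 ± 0.05 in TLX+siTLX against TLX+siCTL (limma adjusted p = 0.0278), a call that was lost with library medians set equal (0.03, adjusted p = 0.707) and without S4, S5, S6, S7 or S8 (adjusted p = 0.0905, 0.0703, 0.0747, 0.0802 and 0.0932). Its log2 fold change was -0.11 ± 0.05 in TLX+siCTL against CTL+siCTL (limma adjusted p = 0.112; -0.15 and adjusted p = 0.0413 without S2) and 0.06 ± 0.05 in TLX+siTLX against CTL+siCTL (limma adjusted p = 0.416).

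WWTR1 (ENSG00000018408, chromosome 3, 149517235 to 149736714), which encodes TAZ, was at 6.48, 6.60 and 6.37 log2 CPM in TLX+siTLX, 6.43, 6.50 and 6.40 in TLX+siCTL, and 6.83, 6.75 and 6.79 in CTL+siCTL. Both TLX groups lay below the control cells and overlapped each other. WWTR1 fell by 0.35 ± 0.06 in TLX+siCTL (limma adjusted p = 0.00152) and by 0.31 ± 0.06 in TLX+siTLX (limma adjusted p = 0.00256), each against CTL+siCTL, and its log2 fold change in TLX+siTLX against TLX+siCTL was 0.04 (95% interval -0.09 to 0.17, limma adjusted p = 0.692). YAP1 was the more abundant coactivator, at 53.7 ± 2.48 CPM per kb in TLX+siTLX, 47.6 ± 0.558 in TLX+siCTL and 51.5 ± 2.43 in CTL+siCTL, where WWTR1 was at 16.7 ± 1.30 in TLX+siTLX, 16.2 ± 0.556 in TLX+siCTL and 20.7 ± 0.576 in CTL+siCTL. The log2 ratio of YAP1 to WWTR1 within a library was 1.68 to 1.80 in TLX+siTLX, 1.58 to 1.67 in TLX+siCTL and 1.35 to 1.43 in CTL+siCTL.

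TEAD1 (ENSG00000187079, chromosome 11, 12674591 to 12944483), a DNA-binding partner of YAP and TAZ, rose in TLX+siCTL and fell after the siRNA. Its level was 6.97, 7.02 and 6.73 log2 CPM in TLX+siTLX, 7.86, 8.05 and 8.00 in TLX+siCTL, and 7.43, 7.41 and 7.59 in CTL+siCTL. The 3 groups did not overlap, with TLX+siCTL highest and TLX+siTLX lowest. TEAD1 rose by 0.49 ± 0.09 in TLX+siCTL against CTL+siCTL (limma adjusted p = 0.00207). In TLX+siTLX it fell to 0.479 of the TLX+siCTL level (log2 -1.06 ± 0.09, limma adjusted p = 5.13e-05), the 54th deepest fall of 12564 expressed rows. Against CTL+siCTL it fell by 0.57 ± 0.09 (limma adjusted p = 0.000727). S9 had the lowest TEAD1, and without S9 its log2 fold change was -0.98 against TLX+siCTL (limma adjusted p = 0.000340) and -0.48 against CTL+siCTL (limma adjusted p = 0.00249). CCN1, CCN2 and AMOTL2 were highest in the group with the least TEAD1 message.

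**Figure D3:**
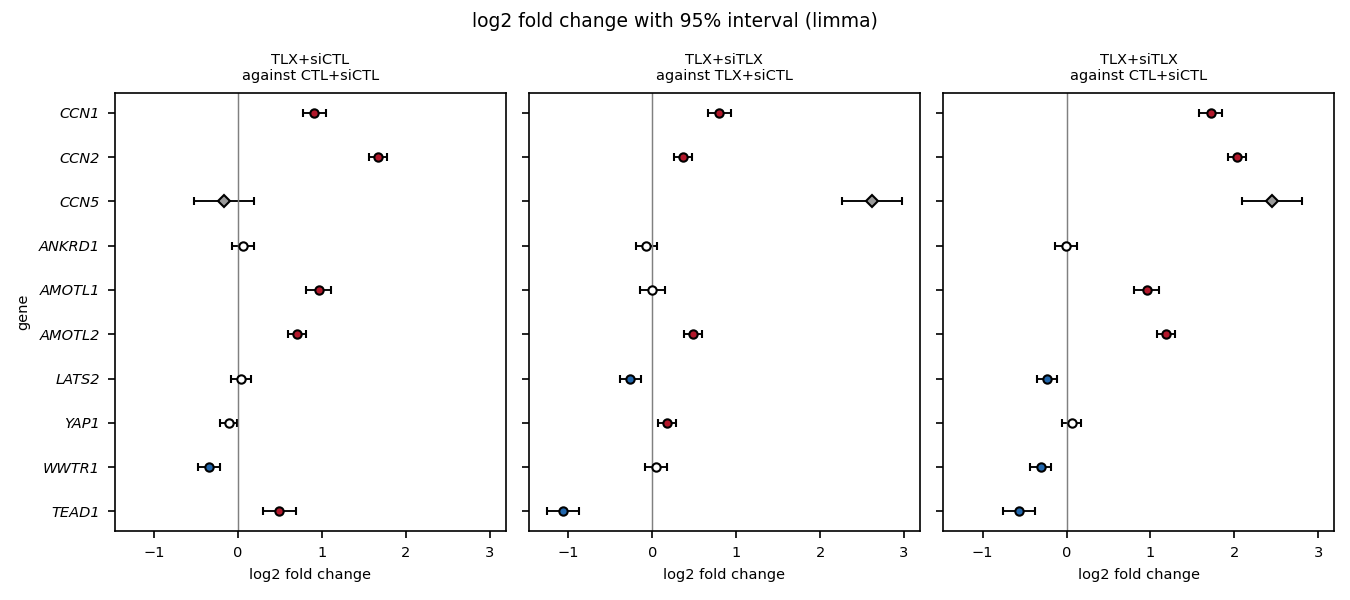
Log2 fold change (x axis) of each gene (y axis) in the 3 comparisons, with 95% intervals from limma. Red is a rise and blue a fall with an adjusted p under 0.05, white is neither, and the grey diamond is CCN5, drawn with no test. CCN5 was picked for its rise after the siRNA, so its interval describes the spread between libraries and cannot be read as a test. CCN1, CCN2 and AMOTL2 are red in every panel, ANKRD1 is white in every panel, and TEAD1 is red in the first and blue in the others.

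None of the other 3 TEAD genes fell in TLX+siTLX against TLX+siCTL. TEAD3 was at 6.57, 6.72 and 6.73 log2 CPM in TLX+siTLX, 6.58, 6.62 and 6.67 in TLX+siCTL, and 6.20, 6.22 and 6.20 in CTL+siCTL. It rose by 0.41 ± 0.05 in TLX+siCTL against CTL+siCTL (limma adjusted p = 0.000210) and by 0.47 ± 0.05 in TLX+siTLX against CTL+siCTL (limma adjusted p = 7.42e-05), and it was 0.05 ± 0.05 in TLX+siTLX against TLX+siCTL (limma adjusted p = 0.500). TEAD2 rose by 0.32 ± 0.08 in TLX+siTLX against TLX+siCTL (limma adjusted p = 0.0206) and by 0.36 ± 0.08 against CTL+siCTL (limma adjusted p = 0.00759). TEAD4 had log2 fold changes of 0.00 to 0.06 in the 3 comparisons. On the per-length scale TEAD1 held 19.8% ± 1.84 of the summed TEAD level in TLX+siTLX, 35.5% ± 1.17 in TLX+siCTL and 32.2% ± 1.24 in CTL+siCTL, and TEAD3 held 51.2% ± 2.70 in TLX+siTLX, 42.4% ± 0.786 in TLX+siCTL and 40.7% ± 1.43 in CTL+siCTL. The sum over the 4 genes was 65.6 ± 3.37 CPM per kb in TLX+siTLX, 76.2 ± 2.83 in TLX+siCTL and 59.8 ± 1.82 in CTL+siCTL. The summed TEAD level of each TLX+siTLX library, 63.1 to 69.5, lay above the control libraries at 58.3 to 61.8, and TEAD3 took the larger share.

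Of the VGLL genes, which encode other TEAD cofactors, VGLL4, a competitor of YAP for TEAD, was at 5.44, 5.74 and 5.76 log2 CPM in TLX+siTLX, 5.00, 5.18 and 4.87 in TLX+siCTL, and 5.45, 5.36 and 5.23 in CTL+siCTL. It rose by 0.62 ± 0.11 in TLX+siTLX against TLX+siCTL (limma adjusted p = 0.00302), and its log2 fold changes were -0.32 ± 0.11 in TLX+siCTL and 0.30 ± 0.11 in TLX+siTLX, each against CTL+siCTL (limma adjusted p = 0.0507 and 0.0618). VGLL3 had log2 fold changes of -0.46 ± 0.17 in TLX+siCTL against CTL+siCTL and 0.46 ± 0.17 in TLX+siTLX against TLX+siCTL (limma adjusted p = 0.0735 and 0.0900). VGLL1 and VGLL2 stayed at or near the floor. Of the 5 measured TEAD and VGLL genes other than TEAD1, 1 rose and 0 fell in TLX+siCTL against CTL+siCTL, and 2 rose and 0 fell in TLX+siTLX against either group. In the first comparison 1 rose and 2 fell with only expressed rows tested, and 1 rose and 1 fell without S5, without S7 and with rows of a symbol summed. For TLX+siTLX against TLX+siCTL the count was 1 without S4, S5, S6 or S8 and with library medians set equal. Of the expressed rows 29.3% rose and 27.4% fell in TLX+siCTL against CTL+siCTL. In TLX+siTLX 23.8% of them rose and 22.0% fell against TLX+siCTL, and 32.4% and 31.2% against CTL+siCTL. The counts thus do not set these 5 genes apart.

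**Figure D4:**
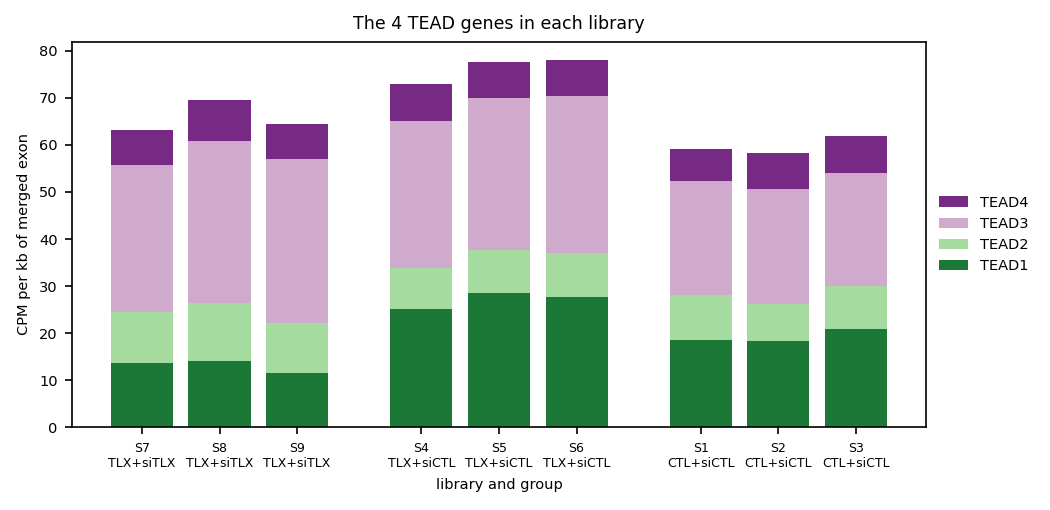
CPM per kb of merged exon (y axis, from 0) of TEAD1, TEAD2, TEAD3 and TEAD4, stacked, in each library (x axis, by group). The TEAD1 part is 11.5 to 14.0 in TLX+siTLX, 25.1 to 28.5 in TLX+siCTL and 18.3 to 20.8 in CTL+siCTL.

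Upstream Hippo genes were called about as often as expressed rows in general. Of 24 genes, 23 were measured and 22 expressed. In TLX+siCTL against CTL+siCTL 10 rose and 6 fell, with a median log2 fold change of 0.08. Of the expressed rows 29.3% rose and 27.4% fell. The 10 rises included DCHS1, which with a mean of 0.10 log2 CPM was not an expressed row. With library medians set equal 11 rose and 2 fell. FAT4, an atypical cadherin at the top of the pathway, rose by 0.97 ± 0.06, the scaffold WWC1 (KIBRA) by 0.78 ± 0.09 and AJUBA, a LIM protein that binds LATS kinases, by 0.52 ± 0.05, while the kinase MAP4K4 fell by 0.82 ± 0.07. Against TLX+siCTL, 3 rose and 7 fell in TLX+siTLX, with a median of -0.09, where 23.8% of the expressed rows rose and 22.0% fell. The falls included the scaffold WWC3 (-0.55 ± 0.04), the LATS cofactors MOB1A (-0.48 ± 0.03) and MOB1B (-0.41 ± 0.09) and the kinase STK3 (-0.40 ± 0.09). That count of 10 called genes was 3 with only these groups in the fit, 4 without S5, 5 without S6 and 6 without S8, and with library medians set equal it was 0 up and 11 down. Against CTL+siCTL, 7 rose and 8 fell in TLX+siTLX, where 32.4% of the expressed rows rose and 31.2% fell, with FAT4 at 0.86 ± 0.06, WWC1 at 0.73 ± 0.09, NF2 (merlin) at 0.62 ± 0.06 and AJUBA at 0.60 ± 0.05. All 4 passed the test.

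A list of 17 further genes known as YAP/TAZ targets in cancer cells was read beside CCN1, CCN2 and AMOTL2, and all 17 were expressed. The list was chosen with earlier results of these data known, so its counts are a description. In TLX+siCTL against CTL+siCTL 8 rose and 3 fell, with a median log2 fold change of 0.26, where 29.3% of the expressed rows rose and 27.4% fell. The ectonucleotidase NT5E (CD73) rose by 1.26 ± 0.07, the matrix protein CCDC80 by 1.17 ± 0.08 and the receptor kinase AXL by 1.13 ± 0.04, while the ligand TGFB2 fell by 0.71 ± 0.07. In TLX+siTLX against TLX+siCTL 13 rose and 1 fell, with a median of 0.35, where 23.8% of the expressed rows rose and 22.0% fell. Tissue factor, F3, rose by 1.17 ± 0.07, CCDC80 by 0.82 ± 0.08, TGFB2 by 0.81 ± 0.07 and the RNA-binding protein gene RBMS3 by 0.66 ± 0.15. With library medians set equal these counts were 7 and 1. In TLX+siTLX against CTL+siCTL 11 rose and 1 fell, with a median of 0.62 (32.4% and 31.2% of the expressed rows), and CCDC80 stood at 1.98 ± 0.08, NT5E at 1.79 ± 0.07, AXL at 1.42 ± 0.04 and RBMS3 at 1.20 ± 0.15. GADD45A, a stress-response gene, was the gene that fell in TLX+siTLX against TLX+siCTL (-0.39 ± 0.07), and FOXF2, a forkhead factor, the one that fell against CTL+siCTL (-0.24 ± 0.07). The FOXF2 call was lost without S1, S2, S7 or S8 and with only these groups in the fit. These 2 were named after their values were seen.

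**Figure D5:**
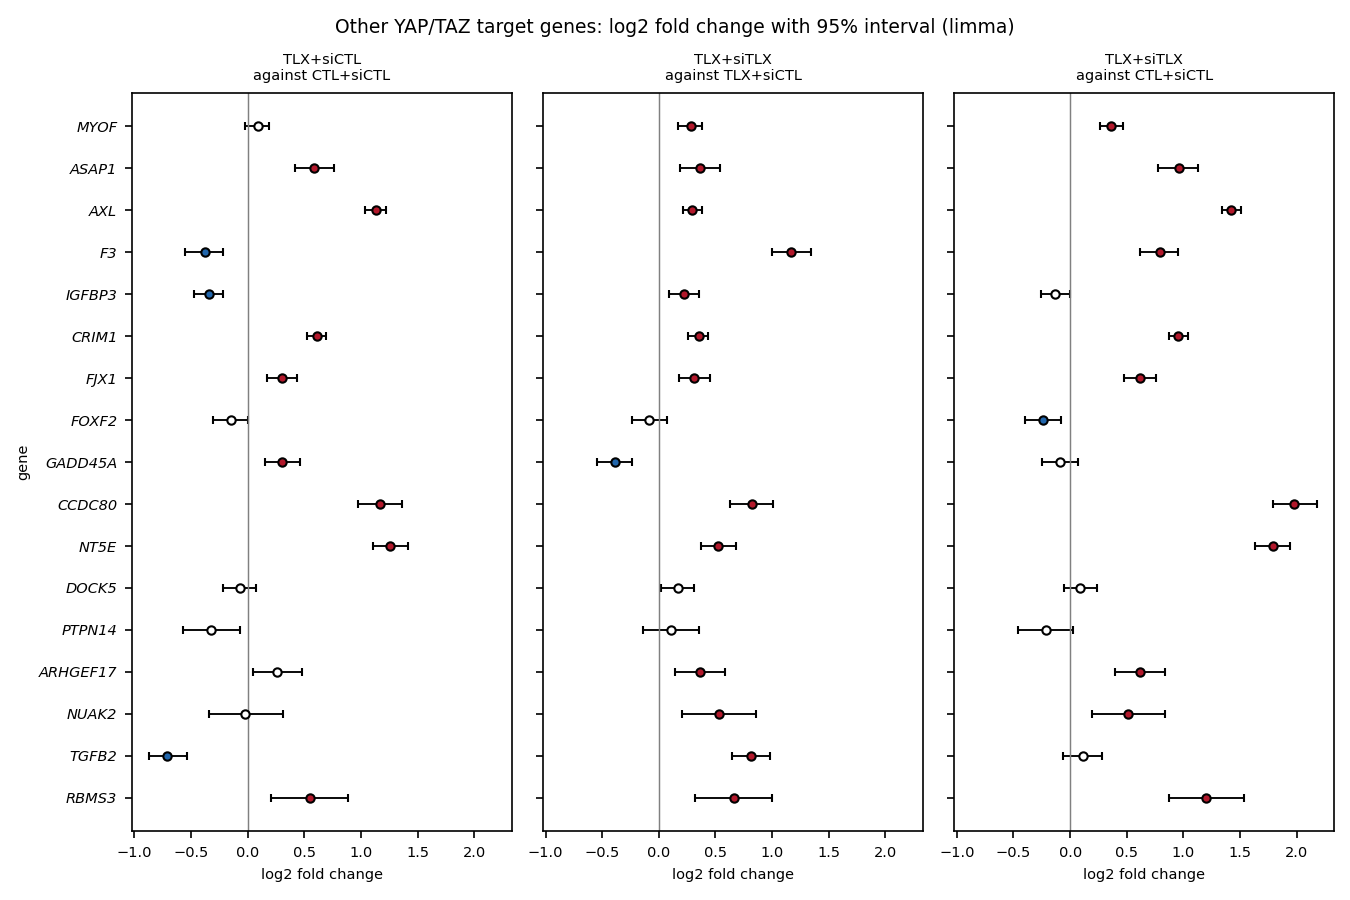
Log2 fold change (x axis) of 17 other YAP/TAZ target genes (y axis) in the 3 comparisons, with 95% intervals from limma. Red is a rise and blue a fall with an adjusted p under 0.05, and white is neither. In TLX+siTLX against TLX+siCTL 13 genes are red and GADD45A is blue.

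Genes of CCN receptors and binding partners, mainly integrins, were counted next. Of 13 genes, 12 were measured and 11 expressed. In TLX+siCTL against CTL+siCTL 3 rose and 8 fell, with a median log2 fold change of -0.46. Of the expressed rows 29.3% rose and 27.4% fell. The 8 falls included ITGAM, which with a mean of -2.03 log2 CPM was not an expressed row. With only expressed rows tested 3 rose and 7 fell. The count was 2 up and 5 down without S4. The integrin subunits ITGB2 and ITGB3 fell by 1.87 ± 0.10 and 1.26 ± 0.05 and the proteoglycan SDC4 by 0.63 ± 0.04, while IGF2R, a lysosomal sorting receptor, rose by 0.81 ± 0.04. Against TLX+siCTL, 6 rose and 1 fell in TLX+siTLX, with a median of 0.44, where 23.8% of the expressed rows rose and 22.0% fell. ITGB3 rose by 1.29 ± 0.05, ITGB2 by 1.06 ± 0.10, the fibronectin receptor subunit ITGA5 by 1.04 ± 0.09 and SDC4 by 0.66 ± 0.04. ITGB3 was at 4.32, 4.48 and 4.34 log2 CPM in TLX+siTLX, 3.05, 3.08 and 3.12 in TLX+siCTL, and 4.39, 4.30 and 4.33 in CTL+siCTL, so that TLX+siTLX overlapped the control cells. Against CTL+siCTL, TLX+siTLX had 4 rises and 2 falls and a median of 0.03 (32.4% and 31.2% of the expressed rows), with ITGA6 at 0.63 ± 0.09, ITGA5 at 0.62 ± 0.09, ITGB5 at 0.58 ± 0.07 and ITGB2 at -0.80 ± 0.10.

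Targets of SRF and its cofactors MRTF, actin-regulated factors that also act on CCN1 and CCN2, were counted in the same way. Of 16 genes, 14 were measured and 13 expressed, the other measured gene being ACTA2, at a mean of 0.43 log2 CPM. In TLX+siCTL against CTL+siCTL 4 rose and 6 fell (median -0.09), with the smooth muscle protein gene TAGLN at -1.04 ± 0.25, the focal adhesion gene TGFB1I1 at -1.02 ± 0.05, filamin FLNA at 0.70 ± 0.05 and SRF itself at 0.49 ± 0.04. Against TLX+siCTL, 11 rose and 1 fell in TLX+siTLX (median 0.46), with the myosin light chain MYL9 at 1.29 ± 0.06, TAGLN at 0.97 ± 0.25, the calponin CNN2 at 0.74 ± 0.05 and the tropomyosin TPM1 at -1.11 ± 0.05. Against CTL+siCTL, 10 rose and 2 fell in TLX+siTLX (median 0.60), with MYL9 at 1.02 ± 0.06, FLNA at 1.01 ± 0.05, vinculin VCL at 1.00 ± 0.06 and TPM1 at -1.44 ± 0.05. The balance in TLX+siCTL against CTL+siCTL turned to 6 up and 5 down with library medians set equal and with only these groups in the fit, and was 6 and 6 without S9. In TLX+siTLX against TLX+siCTL 7 rose and 1 fell with library medians set equal. Of the expressed rows 29.3% rose and 27.4% fell in the first comparison, 23.8% and 22.0% in the second and 32.4% and 31.2% in the third.

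The genes whose levels over the 9 libraries were most like those of CCN5, among 11876 expressed genes, were SDC1, PMF1 and CERCAM (Pearson r = 0.997, 0.995 and 0.995). SDC1, a heparan sulphate proteoglycan, was at 6.27, 6.39 and 6.36 log2 CPM in TLX+siTLX, 5.46, 5.44 and 5.33 in TLX+siCTL, and 5.51, 5.39 and 5.47 in CTL+siCTL. For CCN1 they were BUB1, ADAMTS6 and CSE1L (r = 0.998, 0.997 and 0.997), and for CCN2 ANKRD33B, AXL and H2BC12 (r = 0.999, 0.999 and 0.997). AXL, on the target list above, was at 10.36, 10.43 and 10.42 log2 CPM in TLX+siTLX, 10.09, 10.08 and 10.15 in TLX+siCTL, and 8.97, 9.00 and 8.97 in CTL+siCTL. With 3 group means behind 9 libraries such values are common: 242, 744 and 743 genes had r over 0.95 with CCN5, CCN1 and CCN2.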

How the data were processed

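Per the labels' protocols, the 9 libraries of the 3 groups were made with the TruSeq stranded mRNA kit. The authors deposited log2 CPM values per library and a table of signed fold changes (another unit, a fall being minus the inverse ratio), raw p-values and false discovery rates. The tools kallisto 0.44.0, limma and edgeR and the build GRCh38 are named per the submitters' processing notes, without their roles, and the test behind the authors' p-values is not stated. Column names give the group and a running number, used here as S1 to S9, and 0 columns were left unmapped.

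For the tests, limma 3.58.1 (R 4.3.3) was fitted once to the deposited log2 CPM of the 9 libraries, with group means and a trend on intensity. P-values were two-sided and adjusted by Benjamini-Hochberg over 27548 rows, and 0.05 was the threshold. No row was filtered out; list genes counted as measured at a mean log2 CPM of at least -3, and expressed means at least 1. The script was tested on simulated data. The lowest value, -5.33 in every library, was read as 0 reads with a prior count of 2, which shrinks fold changes of low genes. Read numbers rebuilt from it are estimates: 29.1% to 30.2% of rows lay within 0.01 of a whole read. That share includes the rows at 0 reads, 18.4% to 20.1%, which are whole by construction. Strand use in counting is not stated. Antisense genes are annotated over the spans, introns included, of CCN2, CCN5, AMOTL1, LATS2, YAP1, WWTR1 and TEAD1. None of these antisense genes was among the 27548 rows, and whether their reads were kept apart is not known. Genes were placed with GENCODE 29 by Ensembl identifier. From lists of 10 or more genes, up to 4 called genes with the largest log2 fold change at a mean log2 CPM of at least 1 were named per comparison, and shorter lists in full. The 10 genes and the lists were chosen with earlier results of these data known.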

Additional observations from a re-analysis of the deposited data

How the results depend on the processing

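The tested genes were recomputed under 15 other settings: library medians of all rows set equal, quantile normalization, log2(CPM + 1), expressed rows only, only the groups compared in the fit, rows of a symbol summed, and each of the 9 libraries left out. The count of called genes, 6, 6 and 7 of 9 in the 3 comparisons, changed only where YAP1 or ANKRD1 gained or lost a call. For CCN1, CCN2, AMOTL2, LATS2, WWTR1, TEAD1 and AMOTL1 no call was lost or gained in any setting. The exceptions were YAP1 and ANKRD1, as given above. CCN1 ranged over 0.87 to 1.03 in TLX+siCTL against CTL+siCTL and 0.66 to 0.84 in TLX+siTLX against TLX+siCTL, and TEAD1 over 0.46 to 0.61 and -1.20 to -0.98. Setting the medians equal shifted all fold changes by 0.12 in TLX+siCTL against CTL+siCTL, -0.14 in TLX+siTLX against TLX+siCTL and -0.03 in TLX+siTLX against CTL+siCTL. The NR2E1 rise that remained in TLX+siTLX against CTL+siCTL (1.86, limma adjusted p = 0.0134) lost its call on the log2(CPM + 1) scale (0.18, adjusted p = 0.387) and without S1 (1.80, adjusted p = 0.0549). No paired analysis was possible because the columns of the table carry running numbers and not the replicate numbers of the labels.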
